A study of Mus musculus with 8 samples.

Results

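MYC, its obligate partner MAX and 30 genes of growth metabolism and ribosome assembly were followed in RNA of mouse colon epithelium. The set was listed by name because PIM kinases are known to cooperate with MYC, and each of the 32 names matched 1 of the 55487 genes in the deposited table. Intestinal epithelial cells, the sheet that lines the large bowel, came from 4 wild type (WT) libraries and 4 libraries labelled PIM1+/-, a genotype written as heterozygous for the serine/threonine kinase gene Pim1. All 8 libraries were of the C57BL/6J strain and of total RNA from colon. The labels give no age, sex, treatment, description of the allele or word on whether each library was its own animal, and p-values thus measure no more than the spread between these libraries. Values are in TPM, transcript levels scaled per gene length and to a fixed library total, which keep no read depth. Where a gene's 4 values of a genotype are listed, they stand in the order of replicates 1 to 4.

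MYC is a transcription factor that binds DNA as a heterodimer with MAX, at the E-box sequence CACGTG among others. Genes for making ribosomes are among its best known targets, together with enzymes that supply polyamines and nucleotides. In the nucleolus, RNA polymerase I transcribes a ribosomal RNA precursor, small nucleolar ribonucleoproteins (snoRNPs) guide its chemical modification and cleavage, and separate sets of assembly factors build the small and the large subunit. In the intestine these genes are known to be most active in dividing crypt cells.

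The MYC and ribosome biogenesis transcripts did not separate the genotypes. Of the 32 genes, all of which had at least 1 TPM in at least 4 libraries and were tested, limma called 0 higher and 0 lower in PIM1+/- at an adjusted p of 0.05, where it called 17.5% of the 12760 genes tested. At an unadjusted p under 0.05 there were 3 of the 32, against 32.4% of all tested genes. For 0 of them did the 4 libraries of each genotype lie apart, which they did for 23.5% of all tested genes. The fold changes on the log2(TPM + 1) scale, PIM1+/- over WT, ran from -0.30 for Max to 0.55 for Wdr43 with a median of 0.15, where the median of all tested genes was -0.01. Of the 32, 24 lay above 0, as did 48% of all tested genes. The ratio of mean TPM, PIM1+/- over WT, was lowest for Max (0.816) and highest for Wdr43 (1.56) and Rrp12 (1.48). Confidence intervals (95%) stayed within 1 of 0 on the log2 scale for 31 of the 32 genes and for 90% of all tested genes, so a doubling or halving lay outside the interval of each gene but Wdr43.

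**Figure D1:**
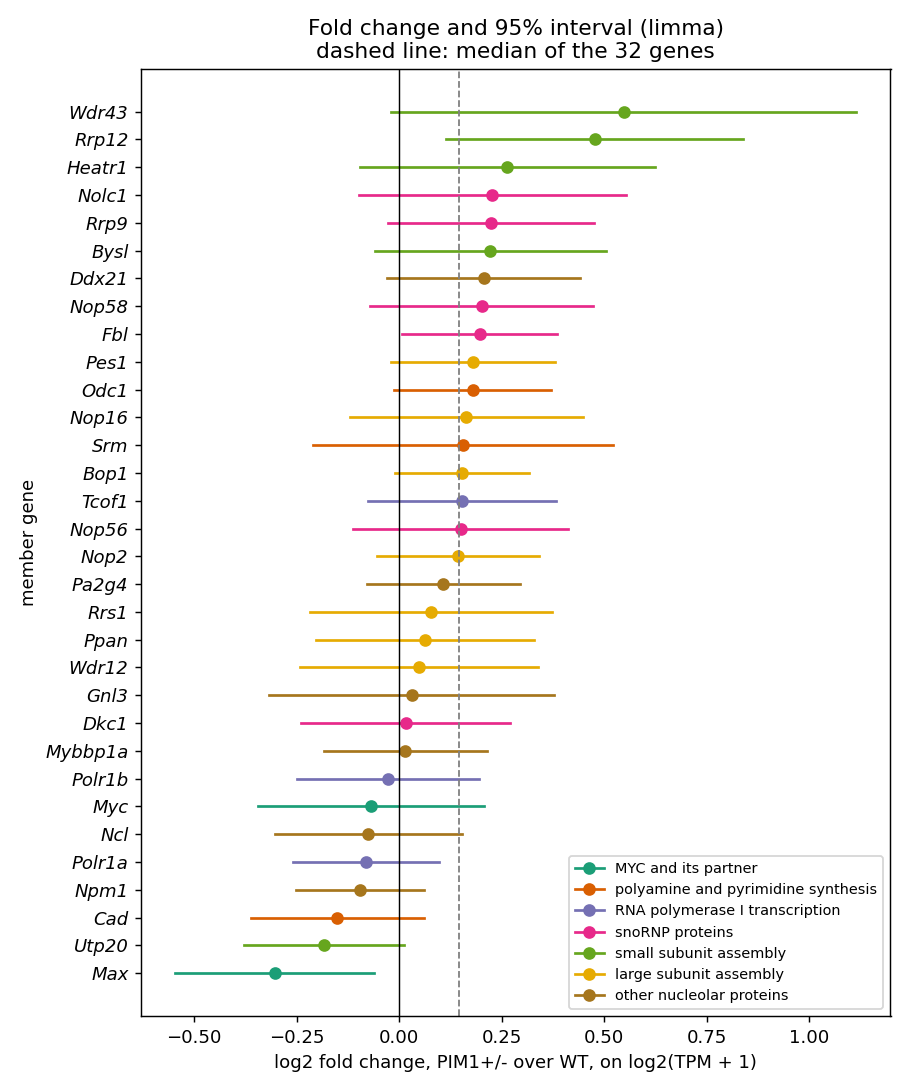
Log2 fold change of PIM1+/- over WT (horizontal axis, on log2(TPM + 1)) for each of the 32 genes, with 95% intervals from limma over 4 against 4 libraries, coloured by role. Points run from -0.30 for Max to 0.55 for Wdr43 around a median of 0.15, and 29 of the 32 intervals include 0.

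The libraries themselves were checked first. Pim1 measured 7.80 ± 1.46 TPM in WT and 6.67 ± 1.12 TPM in PIM1+/- (SD, n = 4 each), a log2 fold change of -0.19 ± 0.15 (SE, limma adjusted p = 0.411), so libraries are named by their labels. All 14 colon epithelial markers were high enough to test, and their summed level ran from 19900 to 24413 TPM in WT and from 27232 to 31138 TPM in PIM1+/-. Summed over 18 T and NK cell markers the level was 17.8 to 33.1 TPM in WT and 54.1 to 124 TPM in PIM1+/-, and over 17 myeloid markers 28.4 to 35.8 and 53.4 to 68.9 TPM. Over 10 B and plasma cell markers the summed level was 4.71 to 15.3 and 9.35 to 13.8 TPM. For 7 smooth muscle markers it was 13.4 to 20.1 and 17.6 to 23.5 TPM, and for 7 endothelial markers 3.73 to 5.82 and 3.34 to 4.20 TPM. Mylk was the only smooth muscle marker tested, at 17.6 ± 2.87 and 20.1 ± 2.73 TPM (adjusted p = 0.359). Over 10 fibroblast markers the sum was 116 to 147 TPM in WT and 108 to 109 TPM in PIM1+/-, most of it Gsn, which fell from 128 ± 13.4 to 96.9 ± 4.76 TPM (-0.39 ± 0.08, adjusted p = 0.00899). The other fibroblast markers that could be tested rose, Fbln1 from 1.02 ± 0.126 to 4.66 ± 1.24 TPM (1.46 ± 0.16, adjusted p = 0.000531) and Fn1 from 0.515 ± 0.264 to 5.18 ± 2.87 TPM (1.94 ± 0.28, adjusted p = 0.00251), the latter reaching 1 TPM in PIM1+/- libraries only. S100a9, Lum and Emcn were listed at 0 in every library. Summed posterior Hox genes, which mark position along the gut, ran from 234 to 289 TPM in WT and from 99.97 to 178 TPM in PIM1+/-. Of 8 tested, 5 were called lower and 0 higher (62.5%, against 17.5% of all tested genes). Hoxb9 and Hoxa11 lay above 0, at 0.24 ± 0.10 and 0.09 ± 0.20 (adjusted p = 0.138 and 0.8). Mitochondrially encoded transcripts made up 16.1% to 18.4% of WT libraries and 12.5% to 13.7% of PIM1+/- libraries. The part of these differences in the members' values was not tested, and in such bulk RNA fewer cells of a type and less RNA per cell cannot be told apart.

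Myc (chromosome 15, 61985391 to 61990374, GRCm38), the proto-oncogene itself, measured 27.9, 21.5, 31.2 and 22.1 TPM in WT, against 27.2, 22.8, 24.1 and 22.7 TPM in PIM1+/-. The 4 PIM1+/- values all lay inside the WT range. Its log2 fold change was -0.07 ± 0.12 (95% interval -0.34 to 0.21, adjusted p = 0.74), and an exact two-sided permutation test of mean TPM gave p = 0.657, where 4 against 4 libraries allow no p below 0.0286. Max (chromosome 12, 76937269 to 76962201), which encodes the partner that MYC and its antagonists share, was the third most abundant of the 32 transcripts per length. It measured 112, 119, 108 and 116 TPM in WT, against 75.8, 85.5, 112 and 98.9 TPM in PIM1+/-. The PIM1+/- libraries spread more widely, and 3 of the 4 lay below every WT library while replicate 3 lay among them. Mean Max went from 113.9 ± 4.85 to 93.0 ± 15.7 TPM, a log2 fold change of -0.30 ± 0.11 that did not pass (unadjusted p = 0.0194, adjusted p = 0.0834, exact permutation p = 0.0857). It passed without PIM1+/- replicate 3 (-0.40, adjusted p = 0.0241) and after rescaling without mitochondrially encoded genes (-0.36, adjusted p = 0.0486). Max transcripts outnumbered Myc transcripts per length by 4.58 ± 0.9995 in WT and 3.89 ± 0.82 in PIM1+/-, and the ratio ranged from 2.79 to 5.57 over the 8 libraries.

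E-boxes were looked up in promoters of the members from RefSeq (GRCm38.p6, 250 bases before to 50 after a start), because CACGTG is the sequence that MYC and MAX bind. Of the 32 genes 24 matched the table, and 6 of those 24 (25%) held CACGTG, which reads the same on both strands, against 11.8% of 9559 matched tested genes and 8.09% of all 27025 genes in the table. The variant CACGCG, searched on both strands as CACGCG or CGCGTG, was found in 8 of the 24 (33.3%), against 19.7% of matched tested genes. Unmatched were Myc, Npm1, Fbl, Srm, Rrp12, Rrs1, Bop1 and Tcof1. The 6 E-boxes are shown with their flanks, 30 bases each, 5′ to 3′ on the gene's strand with the E-box in capitals, since they include the genes at both ends of the range of fold changes.
Max: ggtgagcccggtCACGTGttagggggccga
Utp20: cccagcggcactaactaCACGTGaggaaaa
Wdr43: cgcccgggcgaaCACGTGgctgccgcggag
Pes1: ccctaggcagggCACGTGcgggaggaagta
Mybbp1a: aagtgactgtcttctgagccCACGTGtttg
Nop2: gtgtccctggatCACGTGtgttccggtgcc
These windows lie at chr12:76962234-76962263 (minus strand) for Max, chr10:88826765-88826794 (minus strand) for Utp20 and chr17:71616220-71616249 (plus strand) for Wdr43. Those of the other genes lie on the plus strand, at chr11:3963965-3963994 for Pes1, chr11:72441347-72441376 for Mybbp1a and chr6:125131811-125131840 for Nop2. Positions were counted from the RefSeq start, which differs from the GENCODE gene bounds for Max, Utp20, Wdr43, Mybbp1a and Nop2. The gap is widest for Wdr43, whose GENCODE gene begins at 71615895, so its distance holds for the RefSeq start only. The E-box of Max begins 3 bases before that start and that of Nop2 60 bases before it. Those of Pes1, Wdr43, Utp20 and Mybbp1a begin at bases 3, 18, 38 and 41 counted from it. Max and Utp20 had the lowest fold changes of the 32 and Wdr43 the highest, though these did not pass the test. Rrp12, with the second highest, was unmatched, and a link between E-boxes and fold changes was not tested. A match describes the sequence only. The whole 250 bases before the start of Nop2 (chr6:125131633-125131882, plus strand) give the setting of the most upstream E-box.
Nop2: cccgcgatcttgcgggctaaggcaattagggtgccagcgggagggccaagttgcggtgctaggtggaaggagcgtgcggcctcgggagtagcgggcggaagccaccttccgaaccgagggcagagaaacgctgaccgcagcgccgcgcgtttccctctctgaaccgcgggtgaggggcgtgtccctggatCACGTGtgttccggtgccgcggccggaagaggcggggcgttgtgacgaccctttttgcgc

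Enzymes of polyamine and pyrimidine synthesis are classical MYC targets. Odc1, ornithine decarboxylase, the first step of polyamine synthesis, was the most abundant of these enzymes. It measured 129, 133, 123 and 112 TPM in WT, against 163, 128, 140 and 132 TPM in PIM1+/-. Only PIM1+/- replicates 1 and 3 lay above the WT range, and the log2 fold change was 0.18 ± 0.09 (95% interval -0.01 to 0.37, adjusted p = 0.182). Srm, spermidine synthase, measured 12.6 to 20.2 TPM in WT and 15.8 to 24.1 TPM in PIM1+/- (0.16 ± 0.16, adjusted p = 0.551). Odc1 exceeded Srm per length by 7.81 ± 0.96 in WT and 7.88 ± 0.89 in PIM1+/-, with a range of 6.57 to 8.88. Cad, the enzyme that carries out the first steps of pyrimidine synthesis, measured 8.65 to 11.2 TPM in WT and 8.12 to 9.74 TPM in PIM1+/- (-0.15 ± 0.09, adjusted p = 0.301).

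Transcripts for RNA polymerase I were among the lower ones of the set. Polr1a, its largest subunit, had the narrowest range of the 32 genes, with 6.07, 6.35, 6.12 and 6.91 TPM in WT, against 6.07, 5.90, 6.20 and 5.66 TPM in PIM1+/-. Its highest library exceeded its lowest 1.22-fold, and its log2 fold change was -0.08 ± 0.08 (95% interval -0.26 to 0.10, adjusted p = 0.522). Polr1b, the other catalytic core subunit, measured 11.2 to 14.6 TPM in WT and 11.03 to 13.5 TPM in PIM1+/- (-0.03 ± 0.10, adjusted p = 0.883). Tcof1, which encodes treacle, a nucleolar protein needed for ribosomal DNA transcription, measured 9.80 to 11.5 TPM in WT and 9.99 to 13.9 TPM in PIM1+/- (0.15 ± 0.10, adjusted p = 0.337). Polr1b exceeded Polr1a per length by 2.02 ± 0.33 in WT and 2.09 ± 0.12 in PIM1+/-.

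Proteins of the snoRNPs had 6 of 6 fold changes above 0 (48% of all tested genes), between 0.02 and 0.23, and 0 passing the test. Fbl, fibrillarin, the methyltransferase of box C/D snoRNPs, measured 65.6, 65.5, 66.8 and 56.2 TPM in WT, against 78.3, 62.9, 75.1 and 75.7 TPM in PIM1+/-. PIM1+/- replicates 1, 3 and 4 lay above the WT range and replicate 2 inside it. The log2 fold change of Fbl was 0.20 ± 0.08 (95% interval 0.01 to 0.38, unadjusted p = 0.0432, adjusted p = 0.14), and it passed without PIM1+/- replicate 2 (0.26, adjusted p = 0.0481). Nop56, a core protein of the same particle, measured 61.9, 63.1, 84.7 and 61.0 TPM in WT, against 87.2, 69.7, 71.9 and 70.4 TPM in PIM1+/-, so that a single library of each genotype stood above the others. Its partner Nop58 measured 49.4 to 70.5 TPM in WT and 57.6 to 76.3 TPM in PIM1+/- (0.20 ± 0.12, adjusted p = 0.286). These 3 subunits stayed near 1 to 1 per length, with Nop56 over Fbl at 0.93 to 1.27 and Nop58 over Fbl at 0.75 to 1.08 across the libraries. Near-copy pseudogenes (identity of 95% and up across 50% or more of the pseudogene) were annotated for 7 of the 32 members. Nop56 has 5, with a summed mean level of 10.9 TPM against its own 71.2 TPM, so its division of reads is uncertain. Dkc1, dyskerin, the pseudouridine synthase of box H/ACA snoRNPs, had 14.2 ± 2.58 TPM in WT and 14.2 ± 0.461 TPM in PIM1+/-, a log2 fold change of 0.02 ± 0.11 whose sign turned under upper quartile scaling (-0.028). Nolc1, a phosphoprotein that accompanies snoRNPs between nucleolus and Cajal bodies, was at 21.9 ± 3.94 and 25.8 ± 4.37 TPM (0.23 ± 0.14, adjusted p = 0.314). Rrp9, a protein particular to the U3 snoRNP, was at 14.5 ± 1.62 and 17.1 ± 2.27 TPM (0.22 ± 0.11, adjusted p = 0.201). In GENCODE, 22 snoRNA genes lay on the same strand inside 8 of the 32 members, among them 5 in Nop56, 4 in Nop58, 3 each in Ncl, Wdr43 and Gnl3 and 2 in Ppan. Except for the one in Odc1, these snoRNAs were listed at 0, as short RNAs can be in such libraries, so the table does not show their levels.

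Small subunit assembly factors held both of the largest positive fold changes. Wdr43, a component of the small subunit processome, measured 26.2, 21.9, 27.5 and 18.4 TPM in WT, against 59.5, 24.8, 35.6 and 26.5 TPM in PIM1+/-. Replicates 1 and 3 of PIM1+/- lay above the WT range and the others inside it, and replicate 1 was the highest of all 8 by a wide gap. The log2 fold change of Wdr43 was 0.55 ± 0.25 (95% interval -0.02 to 1.12, adjusted p = 0.168, exact permutation p = 0.143), and it was 0.18 with PIM1+/- replicate 1 and WT replicate 4 left out. Rrp12, a factor known for the export and maturation of pre-ribosomes in yeast, measured 4.17, 5.50, 4.35 and 3.30 TPM in WT, against 8.35, 6.05, 6.23 and 5.08 TPM in PIM1+/-. Among PIM1+/- libraries replicates 1, 2 and 3 lay above the WT range and replicate 4 inside it. Mean Rrp12 went from 4.33 ± 0.905 to 6.43 ± 1.38 TPM, a log2 fold change of 0.48 ± 0.16 (95% interval 0.11 to 0.84, unadjusted p = 0.0153, adjusted p = 0.0713, exact permutation p = 0.0571) that passed without WT replicate 2 (0.58, adjusted p = 0.0422). With PIM1+/- replicate 1 and WT replicate 4 left out it was 0.26 (adjusted p = 0.272). Utp20, a large scaffold protein of the processome, had the second lowest fold change of all 32. It measured 46.7, 46.9, 54.8 and 43.9 TPM in WT, against 46.4, 43.4, 41.9 and 37.2 TPM in PIM1+/-. Replicates 2 to 4 of PIM1+/- lay below the WT range, and the log2 fold change was -0.18 ± 0.09 (95% interval -0.38 to 0.01, adjusted p = 0.177, exact permutation p = 0.0571). Heatr1, another large processome scaffold, measured 6.93 to 10.01 TPM in WT and 8.87 to 14.8 TPM in PIM1+/- (0.26 ± 0.16, adjusted p = 0.29). Bysl, bystin, which acts late in small subunit maturation, measured 4.66 to 7.03 TPM in WT and 6.33 to 8.31 TPM in PIM1+/- (0.22 ± 0.12, adjusted p = 0.255). Exons of Bysl share 361 bases (9.37% of its exon bases) with Ccnd3 on the opposite strand, and no source used here gives the strand setting of the counting.

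Large subunit assembly factors had 7 of 7 fold changes above 0 (48% of all tested genes), between 0.05 and 0.18, with 0 passing the test. With WT replicate 4 and PIM1+/- replicate 1 left out, Nop16, Ppan and Rrs1 lay below 0. Wdr12 did so without WT replicate 1, while Pes1, Bop1 and Nop2 stayed above 0 in every alternative. Pes1, Bop1 and Wdr12 form the PeBoW complex, which acts in processing of the large subunit RNA. Pes1 measured 24.0, 23.4, 25.9 and 20.8 TPM in WT, against 29.8, 24.1, 28.2 and 25.3 TPM in PIM1+/- (0.18 ± 0.09, adjusted p = 0.199). Bop1 measured 28.8, 28.8, 27.4 and 24.2 TPM in WT and 32.6, 28.6, 29.9 and 30.7 TPM in PIM1+/- replicates in the same order (0.15 ± 0.07, adjusted p = 0.18). The ranges of the genotypes overlapped for both, and Bop1 over Pes1 kept between 1.06 and 1.23 in the 8 libraries. Wdr12 was the least abundant of the 32 transcripts, at 4.72 ± 0.695 TPM in WT and 4.92 ± 0.778 TPM in PIM1+/- (0.05 ± 0.13, adjusted p = 0.833), and stood at 0.15 to 0.26 of Pes1. For Wdr12, 2 annotated pseudogenes are near copies (identity of 95% and up across 50% or more of the pseudogene), and their summed mean level was 13.9 TPM, so the division of reads between them is uncertain. Nop2, a large subunit RNA methyltransferase, was at 17.5 ± 1.11 and 19.4 ± 2.01 TPM (0.14 ± 0.09, adjusted p = 0.292). Nop16, a nucleolar assembly factor, was at 21.4 ± 2.06 and 24.3 ± 4.63 TPM (0.16 ± 0.13, adjusted p = 0.41). Ppan, the Peter Pan homolog, was at 20.96 ± 2.66 and 22.0 ± 3.20 TPM (0.06 ± 0.12, adjusted p = 0.759), and Rrs1, known in yeast for bringing the 5S particle to the large subunit, was at 13.5 ± 1.59 and 14.3 ± 2.59 TPM (0.08 ± 0.13, adjusted p = 0.729).

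The remaining nucleolar proteins included the most abundant transcript of the set. Npm1, nucleophosmin, a histone and ribosome chaperone that fills the outer nucleolus, measured 282, 279, 324 and 274 TPM in WT, against 290, 248, 269 and 277 TPM in PIM1+/-. Its log2 fold change was -0.10 ± 0.07 (95% interval -0.25 to 0.06, adjusted p = 0.377), the narrowest interval of the 32. Ncl, nucleolin, which binds nascent ribosomal RNA, measured 84.2, 92.3, 100.4 and 78.0 TPM in WT and 99.9, 77.3, 81.8 and 77.9 TPM in PIM1+/- replicates in the same order (-0.08 ± 0.10, adjusted p = 0.653). The genotypes overlapped for both Npm1 and Ncl. Ddx21, an RNA helicase of ribosomal RNA transcription and processing, was at 24.1 ± 2.13 and 28.0 ± 3.94 TPM (0.21 ± 0.10, adjusted p = 0.209). Gnl3, nucleostemin, a GTPase abundant in stem and tumour cells, was at 26.7 ± 4.99 and 27.3 ± 5.48 TPM (0.03 ± 0.15, adjusted p = 0.916). Pa2g4, also called EBP1, a ribosome-binding growth regulator, was at 61.5 ± 5.72 and 66.3 ± 5.76 TPM (0.11 ± 0.08, adjusted p = 0.405), and Mybbp1a, a nucleolar MYB-binding protein, was at 31.9 ± 1.72 and 32.4 ± 3.91 TPM (0.02 ± 0.09, adjusted p = 0.928). The signs of Gnl3 and Mybbp1a turned under upper quartile scaling (-0.015 and -0.031).

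**Figure D2:**
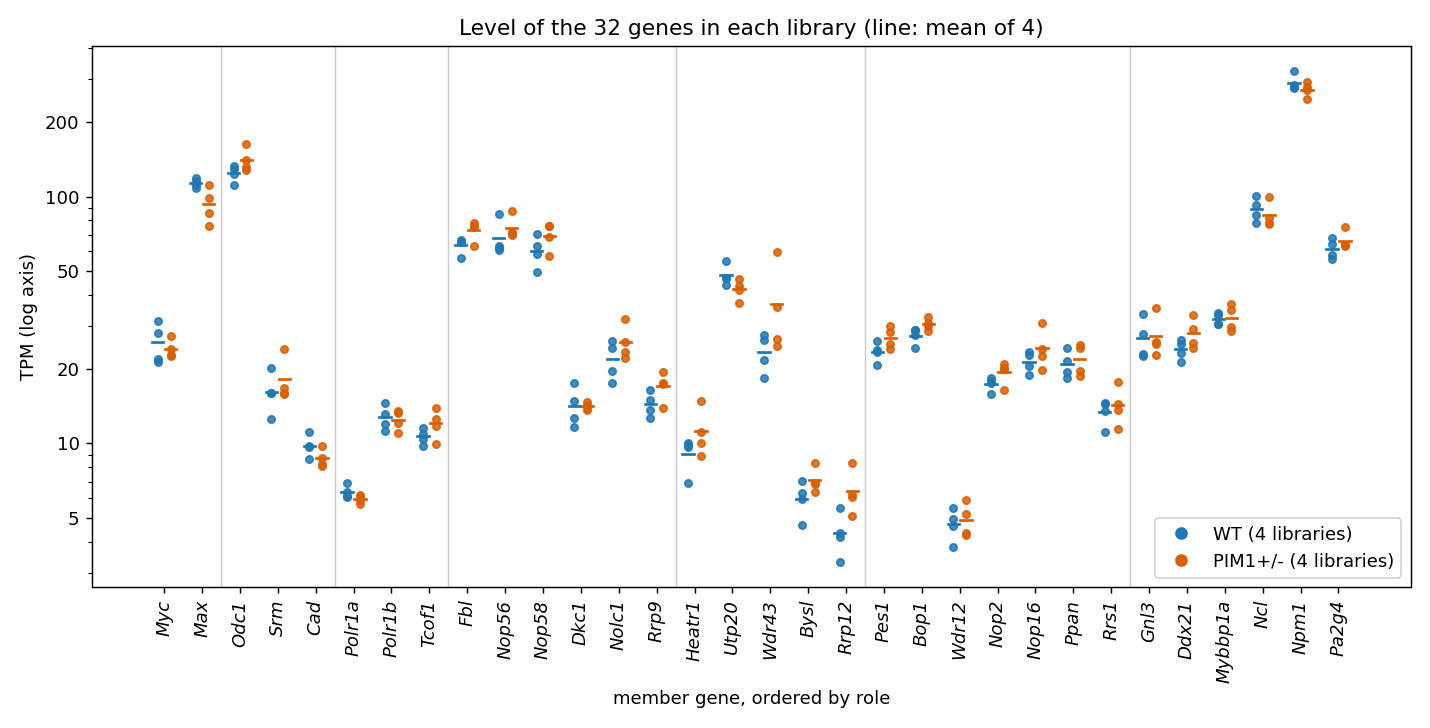
TPM (vertical log axis) of each of the 32 genes, ordered by role with grey lines between roles, in 4 WT (blue) and 4 PIM1+/- (orange) libraries, with a line at each mean. Levels run from 4.82 TPM for Wdr12 to 280 TPM for Npm1 as means over 8 libraries, and the genotypes overlap for every gene.

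Individual libraries stood high or low across many of the 32 genes. The highest of the 8 values lay in PIM1+/- replicate 1 for 22 of the 32 genes, a library that held the highest value for 23.0% of all tested genes. WT replicate 4 held the lowest value for 21 of the 32, against 18.5% of all tested genes. Within WT alone, replicate 4 was the lowest of 4 for 27 of the 32 genes (32.2% of all tested genes), and within PIM1+/- replicate 1 was the highest for 26 (35.5% of all tested genes). Measured as the deviation from each gene's mean over 8 libraries on the log2(TPM + 1) scale, the median of the 32 was -0.03, 0.01, 0.04 and -0.22 in WT replicates 1 to 4 and 0.24, -0.10, 0.07 and -0.01 in PIM1+/- replicates 1 to 4. The same median over all tested genes stayed between -0.05 and 0.06. Max went the other way, with its lowest value in PIM1+/- replicate 1. Summed over the 32 genes the level was 1191 to 1418 TPM in WT and 1214 to 1509 TPM in PIM1+/-, so the totals overlapped too. The median fold change of the set, 0.15, was 0.05 without PIM1+/- replicate 1, 0.10 without WT replicate 4 and 0.01 without both, a combination chosen after the data were seen, and limma again called 0 of the 32 in each case.

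**Figure D3:**
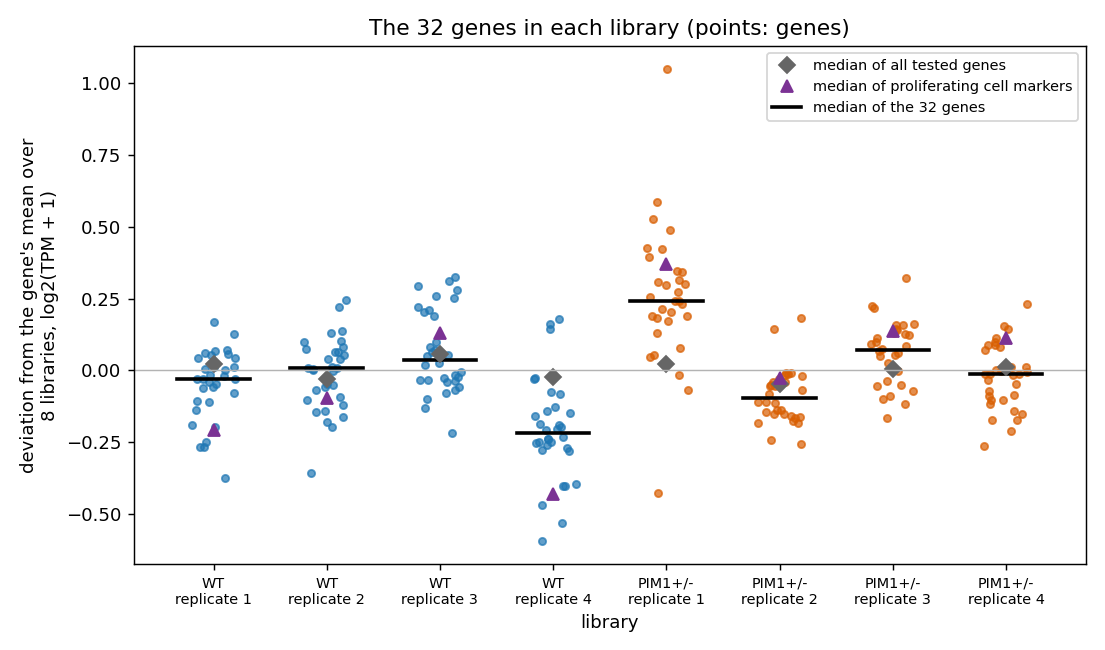
Deviation of each of the 32 genes (points) from its mean over 8 libraries, on log2(TPM + 1), by library, with black lines at the median of the 32, grey diamonds at the median of all tested genes and purple triangles at the median of 17 proliferating cell markers. The black line stands at -0.22 in WT replicate 4 and at 0.24 in PIM1+/- replicate 1, where the diamonds are at -0.02 and 0.02.

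Markers of dividing cells moved with these libraries. The median deviation of 17 replication and mitosis genes was -0.43 in WT replicate 4 and 0.37 in PIM1+/- replicate 1, the lowest and highest of the 8, and that of other small subunit factors was -0.16 and 0.19, of other large subunit factors -0.11 and 0.15. Markers of crypt base stem cells did not follow, with -0.02 and -0.21. The part of dividing cells in the members' values was not tested. Between genotypes 5 of the 17 proliferation markers rose and 0 fell, 29.4% called against 17.5% of all tested genes. Mcm3, part of the helicase that opens DNA for replication, was at 0.70 ± 0.15 (limma adjusted p = 0.0148). The others that rose were Rrm2, Mcm7, Mcm2 and Pcna. Ccnb1 and Cdk1 were not called (adjusted p = 0.293 and 0.445). Fold changes lay above 0 for 16 of the 17, and Mki67 was at -0.02 ± 0.15 (adjusted p = 0.953). The number called higher was 1 without WT replicate 1 or 4, 2 without PIM1+/- replicate 1, 2 or 3, and 3 without WT replicate 2 or PIM1+/- replicate 4. It was 2 without the trend, with replicate number as a block or after rescaling without mitochondrially encoded genes, and 1 without a filter. With WT replicate 4 and PIM1+/- replicate 1 both left out it was 1, and the median fold change of these markers went from 0.31 to 0.16.

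Other genes of ribosome assembly, taken from lists by function, were counted in the same fit. Over 109 tested genes of RNA polymerase I, snoRNPs and small and large subunit assembly that are not members, 6 rose and 2 fell, 7.34% against 17.5% of all tested genes, and the median log2 fold change was 0.07. The split depended on the setting, with 6 higher and 6 lower under upper quartile scaling, 4 and 6 after rescaling without mitochondrially encoded genes, 3 and 2 without a filter or without PIM1+/- replicate 1, 3 and 3 without WT replicate 3, and 2 and 2 without WT replicate 4. Without WT replicate 1 or PIM1+/- replicate 3 or 4 it was 4 and 2. With WT replicate 4 and PIM1+/- replicate 1 both left out it was 1 and 1, and each list's median fold change lay below 0. Those medians were -0.019 for RNA polymerase I, -0.011 for the small subunit, -0.021 for the large subunit and -0.060 for snoRNPs. The median of all tested genes was -0.029 in that setting. RNA polymerase I genes had 0 of 13 called. Of 42 small subunit factors 2 rose, Noc4l (from 12.2 ± 0.862 to 16.1 ± 1.11 TPM, 0.38 ± 0.08, adjusted p = 0.0111) and Rcl1 (0.31 ± 0.09, adjusted p = 0.0432), both factors of early pre-ribosome processing. Noc4l was called in 15 of 17 alternatives and Rcl1 in 6, the latter among single left-out libraries only when WT replicate 2 was left out. Among 40 large subunit factors Ddx24, an RNA helicase, rose from 29.5 ± 1.31 to 38.8 ± 2.92 TPM (0.38 ± 0.07, adjusted p = 0.00596). Nmd3, the export adaptor of the large subunit, rose (0.43 ± 0.11, adjusted p = 0.0283), while Nop53, a large subunit factor also known as a tumour suppressor candidate, fell from 124 ± 14.4 to 91.6 ± 6.35 TPM (-0.43 ± 0.09, adjusted p = 0.0129). Ddx24 was called in 17 of 17 alternatives, Nop53 in 16 and Nmd3 in 12, Nmd3 losing its call without WT replicate 3 or 4 or PIM1+/- replicate 3. Among 14 snoRNP genes the AAA ATPases Ruvbl1 (0.44 ± 0.12, adjusted p = 0.04) and Ruvbl2 (0.29 ± 0.07, adjusted p = 0.0216), which help assemble the particles, rose. Ruvbl2 was called in 13 of 17 alternatives and lost without WT replicate 4 or PIM1+/- replicate 1, and Ruvbl1 was called in 5 and lost without any single library but PIM1+/- replicate 3. Naf1, an assembly factor of box H/ACA particles, fell from 5.62 ± 1.09 to 3.22 ± 0.194 TPM (-0.64 ± 0.12, adjusted p = 0.00863) and was called in 16 of the 16 alternatives that tested it.

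Relatives of MYC and MAX were taken as a list of their own. Of 11 tested network genes 0 rose and 2 fell (18.2% called, near the 17.5% of all tested genes, median -0.19). Leaving out WT replicate 1, 3 or 4 brought the number that fell to 0, with Mycn then untested. It was 1 when replicate 2 of either genotype or PIM1+/- replicate 1 was left out, and in fits with no trend or no filter. The median moved to 0.0014 on leaving out WT replicate 1, to -0.06 on leaving out WT replicate 3 and to -0.07 on leaving out PIM1+/- replicate 2. Mycn, a paralog of Myc that is sparse in this tissue, was at 1.69 ± 0.376 TPM in WT and 0.532 ± 0.107 TPM in PIM1+/- (-0.80 ± 0.14, adjusted p = 0.00595). It reached 1 TPM in WT libraries only, so it entered the test through the genotype in which it was higher. Leaving out any WT library took Mycn out of the test, so those counts and medians cover 10 genes without it. Mycn was called in 11 of the 11 alternatives that tested it. Mlxip, a glucose-sensing relative, fell from 27.6 ± 2.53 to 21.5 ± 2.61 TPM (-0.35 ± 0.10, adjusted p = 0.0381) and kept its call in 7 of 17 alternatives. The MAX partner Mxd4, an antagonist of MYC, was at 35.1 ± 2.47 and 27.6 ± 5.01 TPM (-0.35 ± 0.12, adjusted p = 0.0785). Of 9 genes for MYC turnover and cofactors 0 were called by limma, the nearest being the ubiquitin ligase gene Huwe1 (-0.19 ± 0.06, adjusted p = 0.0667) and Usp28, a deubiquitinase that stabilises MYC (-0.37 ± 0.13, adjusted p = 0.0718). At an unadjusted p under 0.05 these 2 were the only ones of the 9, where 32.4% of all tested genes passed. Both were called lower under upper quartile scaling and after rescaling without mitochondrially encoded genes. Huwe1 also passed under median-of-ratios scaling and without WT replicate 2, and Usp28 without PIM1+/- replicate 3.

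Growth genes outside ribosome assembly were counted too. Of 28 other MYC-induced growth genes 9 rose and 1 fell (35.7% called, against 17.5% of all tested genes, median 0.17). With WT replicate 4 and PIM1+/- replicate 1 left out, 0 rose and 2 fell. In that setting 556 of all 12403 genes tested were called higher and 528 lower. Ldha, lactate dehydrogenase A, rose from 850.0 ± 72.7 to 1102 ± 97.9 TPM (0.37 ± 0.08, adjusted p = 0.0143), and the prohibitin gene Phb rose from 98.6 ± 2.44 to 114 ± 4.66 TPM (0.21 ± 0.05, adjusted p = 0.0188). Ldha was called in 16 of 17 alternatives and Phb in 12, Phb losing its call without WT replicate 4 or PIM1+/- replicate 3. Paics, an enzyme of purine synthesis, fell from 55.5 ± 4.14 to 41.7 ± 2.86 TPM (-0.40 ± 0.07, adjusted p = 0.0063) and was called in 17 of 17 alternatives. The number of growth genes that rose was 1 without WT replicate 4, 3 without replicate 1 or replicate 3 of either genotype, 5 without PIM1+/- replicate 4, and 2 with limma without the trend, without a filter or after rescaling without mitochondrially encoded genes. Of 14 genes of polyamine and pyrimidine metabolism 2 rose and 1 fell, 21.4% called against 17.5% of all tested genes. Eif5a, the translation factor that carries a spermidine-derived residue, rose from 409 ± 31.1 to 499 ± 34.3 TPM (0.29 ± 0.07, adjusted p = 0.0227). Paox, a polyamine oxidase, rose from 6.30 ± 1.27 to 9.61 ± 1.40 TPM (0.55 ± 0.15, adjusted p = 0.0319). Oaz2, an antizyme that restrains ornithine decarboxylase, fell (-0.26 ± 0.08, adjusted p = 0.0477). Eif5a was called in 10 of 17 alternatives, Paox in 9 and Oaz2 in 6. Of these polyamine genes 0 were called without PIM1+/- replicate 1 or without a filter, 1 without replicate 3 or replicate 4 of either genotype or WT replicate 1, and 2 without PIM1+/- replicate 2.

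Genes that MYC is known to repress formed a short list. Of 7 tested, 0 rose and 2 fell, 28.6% called against 17.5% of all tested genes. Cdkn2b, an inhibitor of the cell cycle kinases, fell from 48.9 ± 3.46 to 35.4 ± 3.76 TPM (-0.46 ± 0.09, adjusted p = 0.00821). Ndrg2, a differentiation gene, fell from 114 ± 5.71 to 85.1 ± 13.5 TPM (-0.43 ± 0.11, adjusted p = 0.0224). Cdkn2b was called in 17 of 17 alternatives. Ndrg2 was called in 13 and lost without WT replicate 1 or 3 or without a filter, which left 1 gene called, while 3 were called without PIM1+/- replicate 2 or after rescaling without mitochondrially encoded genes. Targets of p53, which is activated when ribosome assembly is disturbed, had 0 of 10 higher and 1 lower, 10% against 17.5% of all tested genes. The gene that fell was Zmat3 (from 4.90 ± 0.664 to 3.26 ± 0.248 TPM, -0.46 ± 0.11, adjusted p = 0.0185). Zmat3 was called in 13 of the 16 alternatives that tested it and lost without WT replicate 1 or without a filter. Cdkn1a, the best known of them and named here after its values were seen, was at 191 ± 9.87 and 208 ± 22.1 TPM (0.12 ± 0.08, adjusted p = 0.352).

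**Figure D4:**
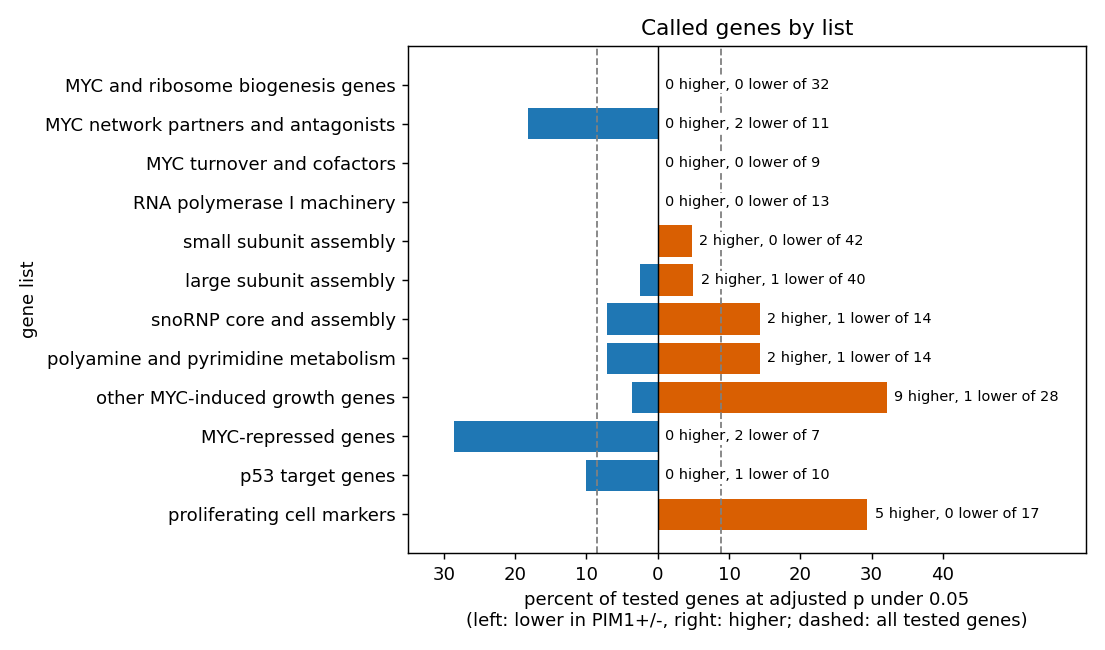
Percent of tested genes at an adjusted p under 0.05 in the 32 MYC and ribosome biogenesis genes and in 11 other lists (horizontal axis, lower in PIM1+/- to the left in blue and higher to the right in orange), with dashed lines at 8.54% and 8.93%, the shares over all tested genes. The 32 genes have 0 on either side, and the other MYC-induced growth genes have 9 of 28 on the right.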

How the data were processed

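The authors deposited gene-level TPM values from RSEM, per the series' design text. HISAT2, StringTie, RSEM and edgeR and the build GRCm38.p6 are named in the submitters' processing notes without versions or roles. No source used here gives the annotation release, strand setting, filters or depth. Of the per-sample columns 0 were left out, and each was matched by genotype and replicate number. TPM has a fixed sum, so a change in abundant transcripts moves all others.

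Log2(TPM + 1) was fitted with limma 3.58.1 in R 4.3.3 on genotype (moderated variances with a trend on mean level, two-sided). It covered the 12760 genes that reached 1 TPM in 4 or more libraries. P-values were adjusted by Benjamini-Hochberg over all of them, with a threshold of 0.05. The fit was also run on simulated data with noise drawn independently for each gene and library. That run held no shifts shared by many genes of a library, so it does not bear on them. Positions came from GENCODE M21, pseudogene matches from BLAST+ 2.17.0 and figures from matplotlib 3.10.9. Per-library values are given by rule for Myc, Max and the members with the 2 largest fold changes each way, and for further members of each role chosen after their values were seen. Of each pathway list up to 3 genes with the smallest p could be named. The members and lists were chosen with earlier results of these data known.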

Additional observations from a re-analysis of the deposited data

Results flagged for a closer look

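In 64 sets of 4 libraries, 32 genes in 2 genotypes, 7 held a value whose gap to its neighbour exceeded Dixon's 95% critical share of the range. Chance flags about 1 in 20 such sets. PIM1+/- replicate 1 was the high library for Nop56 (87.2 TPM, the others 69.7 to 71.9), Srm (24.1 TPM, the others 15.8 to 16.8) and Pa2g4 (74.9 TPM, the others 62.9 to 63.9). WT replicate 4 was the low library for Fbl (56.2 TPM, the others 65.5 to 66.8) and Heatr1 (6.93 TPM, the others 9.63 to 10.01). WT replicate 3 was the high library for Nop56 (84.7 TPM, the others 61.0 to 63.1) and Npm1 (324 TPM, the others 274 to 282).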

How the results depend on the processing

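Limma called 0 of the 32 genes without the trend, under upper quartile and median-of-ratios scaling, without a filter, at a mean of at least 5 TPM (31 tested, without Wdr12) and with a pseudocount of 0.1. Rescaling without mitochondrially encoded genes called 1 (Max), and leaving out each library called 0 to 1, which were Rrp12, Fbl or Max. The median fold change of the 32 was 0.05 to 0.18 over single left-out libraries and 0.012 with WT replicate 4 and PIM1+/- replicate 1 left out, which also called 0. Over all genes, calls of 1139 higher and 1090 lower became 926 and 1520 under upper quartile scaling and 856 and 1568 after rescaling. With the number as a replicate block, 0 of the 32 and 760 higher and 689 lower genes were called. Same-numbered libraries correlated at -0.14 to 0.03 and 0 of the 4 WT libraries matched their own number best. No pairing by number was thus seen, though such correlations cannot exclude that same-numbered samples were handled together.

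Some fold changes turned sign, among them Srm and Nop16, at 0.16 each before, and the cause was not tested. Upper quartile scaling gave -0.028 for Dkc1, -0.031 for Mybbp1a and -0.015 for Gnl3, and rescaling gave -0.0016 for Wdr12, -0.041 for Dkc1, -0.044 for Mybbp1a and -0.028 for Gnl3. Without both libraries Ppan was at -0.046, Srm at -0.088, Nop16 at -0.0065, Dkc1 at -0.071, Mybbp1a at -0.067, Gnl3 at -0.17 and Rrs1 at -0.10. Over single left-out libraries Ppan ran from -0.0026 to 0.14, Myc from -0.15 to 0.028, Wdr12 from -0.032 to 0.11, Polr1b from -0.081 to 0.037, Dkc1 from -0.065 to 0.12, Mybbp1a from -0.045 to 0.073, Gnl3 from -0.095 to 0.14, Rrs1 from -0.025 to 0.17 and Pim3 from -0.16 to 0.030. Depth is unknown, so counting error could not be separated from spread between libraries.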

Other observations

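More growth genes rose than the rule for named genes takes, and these were chosen after their values were seen. Slc7a5, the large neutral amino acid transporter, went from 3.41 ± 0.530 to 7.21 ± 3.08 TPM (0.83 ± 0.24, limma adjusted p = 0.0418). Nme1, a nucleoside diphosphate kinase, went from 26.6 ± 5.52 to 41.3 ± 8.58 TPM (0.62 ± 0.18, adjusted p = 0.0418). The arginine methyltransferase gene Prmt1 rose by 0.36 ± 0.09, and the cap-binding translation initiation factor Eif4e and its helicase partner Eif4a1 rose by 0.26 ± 0.07 each. Hspd1, a mitochondrial chaperonin, and Phb2, the partner of Phb, rose by 0.30 ± 0.09 and 0.15 ± 0.05. Under 17 alternatives Slc7a5 and Nme1 kept their calls in 8 each, Eif4a1 in 8, Eif4e and Hspd1 in 5 each and Phb2 in 1.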
